A study of Mus musculus with 4 samples.

Results

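The lung levels of 5 CXC ligands that draw neutrophils, Cxcl1, Cxcl2, Cxcl3, Cxcl5 and Cxcl15, and of the receptors Cxcr1 and Cxcr2, were described across Pla2g3 genotype and allergen challenge. The genes were taken by name from the non-control probes of the array, with the former names Il8ra and Il8rb accepted for the receptors. All 7 were found among the 31036 genes on the array, each with 1 probe. Mice were labelled Pla2g3+/+ (WT-labelled) or Pla2g3-/- (KO-labelled) and control or antigen (OVA), and Pla2g3 encodes a secreted phospholipase A2. Per the labels, sensitisation was 10 µg ovalbumin in 1.3 mg alum on days 0 and 14. Challenge was a 1% ovalbumin aerosol for 30 min on days 26, 27 and 28, and lungs were taken 48 h later. The same protocol stands beside every sample, so the sources used here do not say how the controls were treated. They also give no age, sex, strain or deleted part of Pla2g3. Each group was 1 Agilent 1-colour array of RNA pooled from 4 samples, so a difference between arrays has no replicate check and no p-value.

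These ligands share a short glutamate-leucine-arginine motif ahead of their first cysteines. Cxcl1, Cxcl2, Cxcl3 and Cxcl5 act on neutrophils mainly through Cxcr2, a Gi-coupled receptor that directs neutrophil migration out of the blood. In the lung, Cxcl5 is made mainly by epithelium, whereas Cxcl1, Cxcl2 and Cxcl3 are made by epithelial cells, macrophages and other cells once Tnf, Il1 or Il17 is sensed, in large part through NF-kB. Cxcl15, also called lungkine, is made by lung epithelium without a stimulus, and Cxcr1 is the close relative of Cxcr2.

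The ligand genes lie side by side on chromosome 5, in the RefSeq order Cxcl5, Ppbp, Pf4, Cxcl3, Cxcl15, Cxcl1 and Cxcl2. The receptor genes Cxcr2 and Cxcr1 are neighbours on chromosome 1. On mm9, the build of the array files, the 60-base probes lie at chr5:91190490-91190549 (Cxcl5), chr5:91216694-91216753 (Cxcl3), chr5:91231948-91232007 (Cxcl15), chr5:91321845-91321904 (Cxcl1), chr5:91334534-91334593 (Cxcl2), chr1:74206886-74206945 (Cxcr2) and chr1:74238359-74238418 (Cxcr1). No annotation of that build was used, so the exon or UTR of a probe is not given. Upstream sequences were taken from RefSeq (GRCm38.p6), whose table matched 6 of the 7 genes, all but Cxcl5. They were searched on both strands, over the 250 bases before the start, for an NF-kB form, GGG and TTCC with any 3 bases between them, which 4.65% of 32851 such windows held. Each of the upstream stretches of Cxcl1, Cxcl2 and Cxcl3 held 3 matches, counting an overlapping pair on opposite strands as separate. Those of Cxcl15, Cxcr1 and Cxcr2 held 0. The stretches below are printed because Cxcl1, Cxcl2 and Cxcl3 shared this feature and neighbouring Cxcl15 did not, and capitals mark the matches. They cover chr5:90890995-90891244 for Cxcl1, chr5:90903649-90903898 for Cxcl2, chr5:90785851-90786100 for Cxcl3 and chr5:90794284-90794533 for Cxcl15, all on the plus strand.
Cxcl1: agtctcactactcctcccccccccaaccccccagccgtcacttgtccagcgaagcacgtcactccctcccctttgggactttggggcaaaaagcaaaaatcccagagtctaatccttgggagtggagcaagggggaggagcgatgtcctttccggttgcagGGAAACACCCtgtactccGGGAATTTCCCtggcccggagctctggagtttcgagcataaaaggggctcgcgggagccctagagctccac
Cxcl2: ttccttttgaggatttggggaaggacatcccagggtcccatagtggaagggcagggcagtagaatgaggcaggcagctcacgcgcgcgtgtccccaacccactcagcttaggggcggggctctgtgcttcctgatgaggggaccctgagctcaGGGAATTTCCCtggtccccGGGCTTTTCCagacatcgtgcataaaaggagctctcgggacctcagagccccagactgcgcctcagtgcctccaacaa
Cxcl3: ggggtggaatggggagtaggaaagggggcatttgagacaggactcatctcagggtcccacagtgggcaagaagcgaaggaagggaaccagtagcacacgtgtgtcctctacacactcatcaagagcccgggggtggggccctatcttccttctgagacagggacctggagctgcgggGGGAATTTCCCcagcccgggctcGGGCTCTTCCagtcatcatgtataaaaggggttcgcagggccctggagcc
Cxcl15: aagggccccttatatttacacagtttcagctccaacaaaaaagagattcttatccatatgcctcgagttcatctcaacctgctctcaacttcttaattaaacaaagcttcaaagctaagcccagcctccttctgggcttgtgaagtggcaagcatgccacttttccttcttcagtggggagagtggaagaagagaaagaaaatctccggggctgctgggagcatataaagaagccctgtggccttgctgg

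The form GGGAATTTCC, picked after the matches were seen, occurred in 0.0852% of the windows and ran from base -71 to -62 in Cxcl1, from -97 to -88 in Cxcl2 and from -73 to -64 in Cxcl3, counted from the start. The TATA form TATAAA, found in 12.4% of windows, began at base -30 in Cxcl3 and -27 in Cxcl15. The AP-1 form TGANTCA, found in 6.75%, matched none of the 6. A match describes these letters only, since binding was not measured.

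The deposited values came from 2 sources that did not hold the same measurements: a value table by the authors and the scanner files of the arrays. Their log2 levels correlated at 0.911 to 0.919 across probes for arrays of the same name, and both are therefore given throughout, each as a log2 level in which 0 is the array's 75th percentile. Pla2g3 went against the labels, with more signal on the KO-labelled arrays in both sources. Its levels were -4.66 and -0.20 in the WT-labelled and KO-labelled controls and -4.60 and 0.06 after challenge by the table, and -3.05, 0.14, -2.83 and 1.07 by the scanner files. Whether its probe lies in the deleted part is not given. Lung markers were present in the table, where the alveolar epithelium list had a median level of 4.38 to 4.52 and the endothelium list 2.97 to 3.19. The scanner files had 0.58 to 2.30 and -3.80 to -2.79 for these lists. Ager, of alveolar type I cells, was at -5.34 to -4.84 by the scanner files and at 3.60 to 3.73 by the table. The club cell list had a median of 7.03 to 7.30 by the scanner files and 4.12 to 4.98 by the table. Scanner levels of T cell and thymocyte markers summed to 47.0 on the KO-labelled control against 4.60 to 6.68 on the other arrays, so comparisons with that array carry this too, and its part in them was not tested.

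Cxcl5 had the largest scanner challenge differences of the 7 genes. Its scanner levels were -3.06 and -0.93 in the WT-labelled and KO-labelled controls, and 3.87 and 5.63 on the challenged arrays of the same labels. In intensity units these spots read 238, 962, 26473 and 98141, and both challenged arrays lay far above both controls. The challenge difference was 6.93 (122-fold, spot error 0.20) on WT-labelled arrays and 6.56 (94.6-fold) on KO-labelled arrays, where the spot error is the scanner software's own and leaves out variation between mice. The table did not show this: its Cxcl5 levels were -1.72, -0.90, -0.78 and -1.08 in the same order of arrays, a span of under 2-fold. Challenged over control was 1.91-fold higher with the WT label by the table, and -0.18 on the log2 scale with the KO label.

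Cxcl1, the mouse KC chemokine, stood higher after challenge in all 4 pairs. Table levels were -5.33 and -4.27 in the WT-labelled and KO-labelled controls and -3.76 and -3.80 after challenge. That made challenge differences of 2.96-fold with the WT label and 1.38-fold with the KO label. Scanner levels were -6.33, -4.17, -4.88 and -0.41 in the same order, so that the KO-labelled challenged array stood apart and the KO-labelled control lay above the WT-labelled challenged one. Their challenge differences were 1.45 (2.74-fold, spot error 0.25) and 3.77 (13.6-fold, spot error 0.21).

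Cxcl2, also known as MIP-2, was low in the WT-labelled control in both sources. The table gave -7.70 there and -5.81 in the KO-labelled control, against -6.13 and -6.40 after challenge. It was thus 2.97-fold higher after challenge with the WT label and 1.51-fold lower with the KO label. Scanner levels were -7.65, -6.55, -5.14 and -1.44, the first of them not well above background. The scanner challenge difference was at least 5.70-fold with the WT label, a bound because of the dim control, whose own signal lay above the lowest signal well above background on that array. It was 34.7-fold with the KO label.

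Cxcl3, a close paralog of Cxcl2, differed in direction between the sources after challenge with the KO label. By the table its levels were -5.08 and -2.78 in the WT-labelled and KO-labelled controls, and -3.76 and -4.22 after challenge. The KO-labelled control was the highest array, so the challenge difference was 2.50-fold up for the WT label and 2.72-fold down for the KO label. The scanner files gave -6.72, -7.15, -5.46 and -1.52. There the controls lay 0.42 apart with a spot error of 0.37, and challenge differences were 2.41-fold and 49.3-fold, both higher. Cross-hybridisation among the probes of Cxcl1, Cxcl2 and Cxcl3 was not tested.

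Cxcl15 was the steadiest of the ligands in the table, at 4.08, 4.14, 3.85 and 4.25 in the order WT-labelled control, KO-labelled control, WT-labelled challenged and KO-labelled challenged. Its challenge differences there were -0.23 and 0.10. The scanner levels were -2.98, -2.76, -1.98 and -0.94, with controls 0.22 apart at a spot error of 0.20. Challenged arrays were higher by 2.01-fold and 3.52-fold. The probe thus read far above the 75th percentile in the table and below it in the scanner files. The alveolar and endothelial marker lists read higher in the table too, as given above. The club cell list, also given above, read lower in the table. So did the ciliated cell list, with medians of -0.01 to 0.83 against 2.60 to 3.15 by the scanner files. The part of any of these cell types in the gap was not tested.

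Cxcr2, the main neutrophil receptor of Cxcl1, Cxcl2, Cxcl3 and Cxcl5, differed little in the table. Its levels there were -2.46, -2.12, -1.89 and -2.16, with challenge differences of 0.58 and -0.04. In the scanner files it stood at -5.59, -4.52, -3.60 and -1.20, and each step in this order was wider than the spot errors. The scanner challenge differences were 3.98-fold (spot error of 0.21 on the log2 scale) and 10.0-fold (also 0.21).

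Cxcr1 had 1 array apart from the rest in each source, but not the same one. Table levels were -4.10, -0.51, -4.26 and -3.89, with the KO-labelled control 12.0-fold above the WT-labelled control. Its challenge difference with the KO label was therefore -3.39, or 10.5-fold lower, against -0.16 with the WT label. The scanner levels were -7.00, -6.88, -6.27 and -4.22, so the KO-labelled challenged array was high and the controls differed by 0.11 with a spot error of 0.33. The challenge differences there were 0.72 and 2.66, or 1.65-fold and 6.32-fold higher. The table gives no spot flags or errors against which to judge the single high value.

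**Figure D1:**
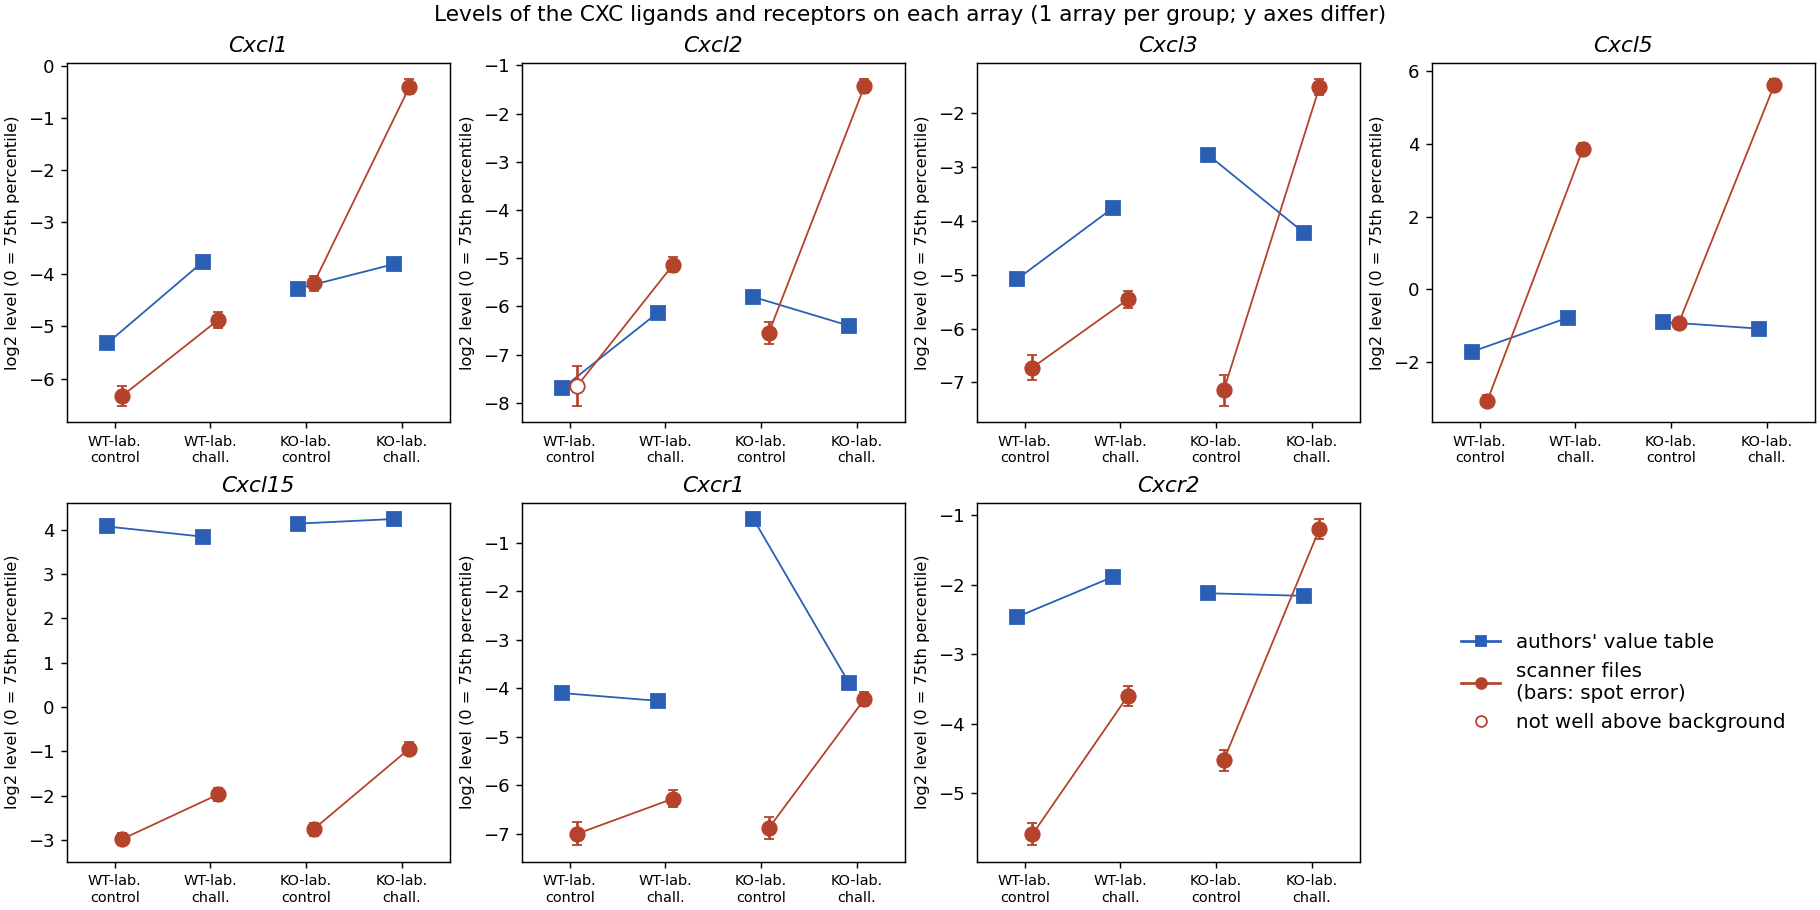
Log2 level of each gene (y axis, 0 is the array's 75th percentile, scales differ between panels) on the 4 arrays (x axis), by the authors' value table (squares) and the scanner files (circles, with bars for the spot error). Lines join the control and challenged arrays of 1 genotype label, and the open circle is not well above background. All 7 scanner series are highest on the KO-labelled challenged array, whereas the table's highest array varies by gene.

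The KO-labelled challenged array was the highest of the 4 for all 7 genes in the scanner files, where it was so for 20.9% of the 26311 genes. The WT-labelled control was the lowest for 6 of them (18.6% of genes), all but Cxcl3. In the table it was the lowest for 5 (25% of 26010 genes), all but Cxcl15 and Cxcr1. The table's highest array was the KO-labelled control for Cxcl2, Cxcl3 and Cxcr1 (25.2% of genes), the WT-labelled challenged array for Cxcl1, Cxcl5 and Cxcr2 (22.1%) and the KO-labelled challenged array for Cxcl15 (29.6%).

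After challenge with the WT label, Cxcl1, Cxcl2 and Cxcl3 were at least 2-fold higher in both sources. The table had 3 of the 7 genes at least 2-fold higher, Cxcl1, Cxcl2 and Cxcl3, where 2.36% of the 25630 genes tested were higher to that extent. Scanner values put 6 of the 7 at least 2-fold higher, all but Cxcr1, against 2.39% of 25822 genes. Of the 24315 genes compared, 0.226% were at least 2-fold higher in both. With normexp background correction and quantile normalization the scanner count was 2, Cxcl5 (6.64) and Cxcr2 (1.25).

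With the KO label the sources parted. By the table, 0 of the 7 genes were at least 2-fold higher, where 3.27% of 25046 genes were, and 2 were at least 2-fold lower, Cxcl3 and Cxcr1, where 1.36% of genes were. In the scanner files all 7 were higher, from 3.52-fold for Cxcl15 to 94.6-fold for Cxcl5, where 4.37% of 25489 genes were. The signs matched for Cxcl1 and Cxcl15, which were above 0 in both sources, as were 22.2% of 23764 genes. Differences under normexp ran from 1.15 (Cxcr1) to 6.58 (Cxcl5).

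Of the control arrays, the KO-labelled one was the higher for 6 of the 7 genes in both sources, all but Cxcl3. Of the 24170 genes compared, 27.3% were above 0 in both. Table values put 4 of 7 at least 2-fold higher with the KO label (1.91% of 25458 genes): Cxcl1 2.08-fold, Cxcl2 3.73-fold, Cxcl3 4.93-fold and Cxcr1 12.0-fold. Scanner values gave 4 as well (3.6% of 25628 genes): Cxcl1 4.46-fold, Cxcl2 at least 2.13-fold, Cxcl5 4.38-fold and Cxcr2 2.09-fold. Only Cxcl1 and Cxcl2 of the 7 were 2-fold higher in both sources, as were 0.124% of genes. Under normexp the scanner count was 2, Cxcl1 (1.01) and Cxcl5 (1.88).

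After challenge the genotype labels were 2-fold or more apart for these genes in the scanner files alone. All 7 genes were at least 2-fold higher on the KO-labelled array there (4.19% of 25750 genes), from 2.05-fold for Cxcl15 to 22.2-fold for Cxcl1, with Cxcl2 at 13.0-fold, Cxcl3 at 15.3-fold and Cxcl5 at 3.39-fold. The receptors were 4.14-fold (Cxcr1) and 5.26-fold (Cxcr2) higher. Table values put 0 of 7 apart by 2-fold in either direction (5.8% of 25401 genes), and the differences ran from -0.46 (Cxcl3) to 0.40 (Cxcl15). These comparisons share arrays with those above and are no separate evidence.

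The challenge response with the KO label minus that with the WT label can be read from the 4 arrays but not tested. Table values were -1.10 (Cxcl1), -2.17 (Cxcl2), -2.76 (Cxcl3), -1.12 (Cxcl5), 0.33 (Cxcl15), -3.23 (Cxcr1) and -0.61 (Cxcr2). Scanner values were 2.32 (Cxcl1), 4.36 (Cxcl3), -0.37 (Cxcl5), 0.81 (Cxcl15), 1.94 (Cxcr1) and 1.33 (Cxcr2). For Cxcl2, whose WT-labelled response is a lower bound, the scanner value was at most 2.61.

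**Figure D2:**
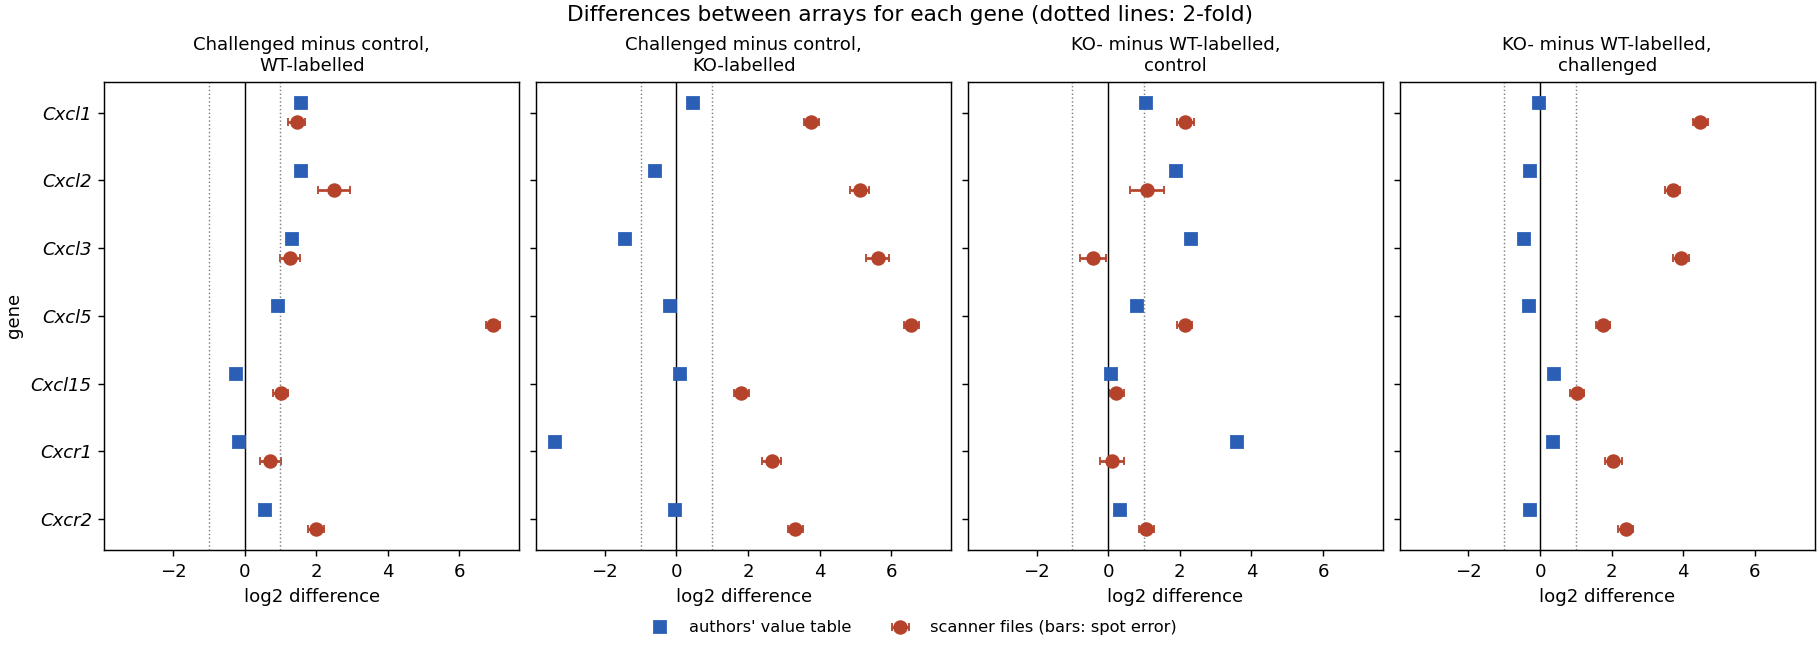
Log2 difference (x axis) of each gene (y axis) in the 4 comparisons of arrays, by the authors' value table (squares) and the scanner files (circles, bars for the spot error); dotted lines mark 2-fold. Cxcl1, Cxcl2 and Cxcl3 lie right of the 2-fold line in both sources for challenge with the WT label, and the sources lie far apart for challenge with the KO label.

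Averaged over the genotype labels, challenged arrays were at least 2-fold higher for all 7 genes by the scanner files (2.82% of 26311 genes). By the authors' values they were so for Cxcl1 alone (2.25% of 26010 genes), and Cxcr1 was at least 2-fold lower (1% of genes). The scanner averages were 6.75 for Cxcl5 (108-fold), at least 3.81 for Cxcl2 (1 dim control, as above), 3.45 for Cxcl3, 2.66 for Cxcr2, 2.61 for Cxcl1, 1.69 for Cxcr1 and 1.41 for Cxcl15, each higher in 2 of 2 pairs. An additive fit over the 4 arrays takes each gene's residual from the disagreement between the genotype labels. Its p-values therefore do not measure variation between mice or between replicate arrays. The additive fit in limma, with 1 residual degree of freedom, passed 0 genes at an adjusted p of 0.05 (Benjamini-Hochberg over all genes) in either source. Unadjusted p was under 0.05 for 2515 genes by the scanner files and 2287 by the table. Adjusted p for Cxcl5 by the scanner files was 0.514 in this limma fit, 0.0206 with a variance trend and 0.0234 under normexp, over a range of 0.0206 to 0.584 across the settings tried. With the trend 1 scanner gene passed, Cxcl5 (0.0038% of genes), and 117 by the table (0.45%), none of them among the 7, and with robust estimation 0 passed in either source. For the challenge difference of the other 6 genes, and of Cxcl5 by the table, adjusted p by limma was 0.214 or more at every setting tried.

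Several cytokines known to induce the ligands were at least 2-fold higher on the challenged scanner arrays, and their listed receptors Il1r1, Il17ra, Il17rc and Tnfrsf1a were not. The list also holds Il1rn and Il36rn, which encode receptor antagonists. Of these 17 listed genes 16 were on the array, and Il1f6 was at background on all arrays of both sources. Scanner values put 6 of 14 measured at least 2-fold higher after challenge with the WT label (median 0.71), or 4 with dim arrays at their background bound (median 0.66). With the KO label 10 of 15 were (median 2.84), and 10 with the bound (median 2.56), and 0 were lower by 2-fold. The antagonist Il1rn was among those counted as higher with either label (1.08 with the WT label and 2.96 with the KO label). Il1b stood at -3.22, -2.23, -1.02 and 2.39 in the order WT-labelled control, KO-labelled control, WT-labelled challenged and KO-labelled challenged. Il17a, of T helper 17 cells, was at -6.50, -6.49, -5.62 and -1.58, and Tnf at -3.48, -3.29, -2.36 and -1.35. The averaged challenge difference was 3.41 for Il1b and at least 6.85-fold for Il1f9 (now Il36g), with Il17ra (-0.19) and Il17f (0.16) the lowest of the list. Of the table's values, 1 of 14 was higher and 1 lower with the WT label (median -0.01) and 2 of 15 higher with the KO label (median 0.10), or 1 with the bound. There Il17a averaged 0.88, while Csf3, dim on 2 of the 4 arrays, 1 control and 1 challenged, has no interpretable average, and Il1f9 (-0.51) and Il1a (-0.42) were lowest.

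Of 17 genes of the NF-kB pathway and its feedback, 2 were at least 2-fold higher by the scanner files with the WT label (median 0.21) and 5 of 16 with the KO label (median 0.79). Zc3h12a, an RNase that degrades cytokine messages, averaged 2.20 and Bcl3, a nuclear co-factor, 1.55, with Traf1 (-0.14) and Rela (-0.09) lowest. By the authors' values 0 of 17 differed by 2-fold in either pair (medians 0.19 and 0.05), and the averages ran from -0.27 (Ier3) and -0.17 (Nfkbiz) to 0.38 (Tnfaip3) and 0.44 (Zc3h12a). Among 18 genes of signalling and adhesion downstream of Cxcr2, 0 differed by 2-fold by the table (medians -0.01 and 0.10, with averages of -0.18 for Pik3cg and 0.28 for Vav1 and Selplg). Scanner values put 2 lower with the WT label and 2 higher with the KO label (medians -0.14 and -0.17), with averages of -0.62 for Prex1, -0.55 for Rac2 and 0.79 for Fgr, a kinase of myeloid cells.

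Of 16 other CXC chemokines and receptors, the table had 1 at least 2-fold higher after challenge with the WT label and 3 with the KO label (medians 0.16 and 0.11), and the scanner files 1 and 5 (medians -0.07 and 0.63), with 2 lower in the WT-labelled pair. Cxcl9 and Cxcl10, interferon-induced ligands of Cxcr3, had the highest averages of the list in both sources. Their averages were 1.66 and 1.17 by the table and 1.85 and 3.09 by the scanner files. The scanner average of Cxcl9 came from the KO-labelled pair, with differences of 0.07 with the WT label and 3.62 with the KO label. Cxcl11, which also binds Cxcr3, averaged 0.05 and -0.06. At the low end the table had Ppbp (-0.37) and Cxcl14 (-0.35), and the scanner files Cxcr3 (-0.64) and Ackr3 (-0.53). Ppbp and Pf4, the platelet ligands that lie between Cxcl5 and Cxcl3, were at -5.22, -4.19, -5.18 and -3.02 and at -0.56, -0.37, -1.06 and 0.63 by the scanner files. Of the platelet list 0 of 8 were 2-fold higher with the WT label and 1 with the KO label there. The median of all genes lay between -0.06 and 0.02 in the 4 comparisons of either source.

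Of 19 listed neutrophil markers 18 were measured, and Ly6g was not among the names on the array. Scanner values put 7 of them at least 2-fold higher after challenge with the WT label (median 0.66), 11 with the KO label (median 1.53), and 11 on the KO-labelled over the WT-labelled challenged array (median 1.35). Lcn2, which epithelium makes too, averaged 3.62 and the lectin Clec4d 2.75. Mpo (-0.63 with the WT label and -1.12 with the KO label), the receptor Csf3r (-0.17 and -0.19) and the elastase Elane (-0.02 and -0.07) were below 0 in both scanner pairs. The summed linear level of the 18 measured markers was 240 and 233 in the WT-labelled and KO-labelled controls and 279 and 315 after challenge. Ltf, at 7.40 to 7.52 on the scanner arrays, weighs most in this sum, and Csf3r, at 5.03 to 5.74, adds to it. Both differed little between arrays, so the sum says little of the dimmer markers. By the authors' values 1 of 18 was higher in each pair (medians 0.16 and 0.03), from Fpr1 (-0.30) and Mmp9 (-0.25) to Il1r2 (0.77) and Retnlg (0.80). The table's sums were 81.9, 92.2, 104 and 101 in the order WT-labelled control, KO-labelled control, WT-labelled challenged and KO-labelled challenged. In RNA of a whole tissue, fewer cells of a type and less RNA per cell cannot be told apart. How far cell numbers moved with the receptors was not tested.

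Macrophage markers summed to 32.2, 43.8, 48.9 and 71.0 on the same scanner arrays, where Cd14, at 4.11 to 5.28, weighs most in the sum. With the KO label 3 of 13 were at least 2-fold higher after challenge (median 0.52). With the WT label 1 was higher and 1, Marco, was lower (median -0.02). The club and ciliated cell lists, of 9 and 11 genes, had 0 at 2-fold in either scanner pair (medians 0.04 and -0.22, and 0.07 and 0.18). The alveolar epithelium list of 15 genes had medians of 0.00 and 0.02. With the WT label 0 of its 14 measured genes differed by 2-fold. With the KO label 2 of 15 were higher and 2 lower, or 1 lower with dim arrays at their background bound. The endothelium list of 10 had medians of -0.07 and 0.82, with 4 at least 2-fold higher with the KO label. The KO-labelled control was low for this list, at a median level of -3.80 against -3.14 to -2.79 on the other arrays. T cell and thymocyte markers were at least 2-fold lower after challenge for 11 of 12 genes with the KO label (median -3.50), where the KO-labelled control was high. By the table, macrophage markers summed to 133, 148, 165 and 170, and the medians of these 6 lists and the platelet list ran from -0.16 (platelet) to 0.36 (macrophage).

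**Figure D3:**
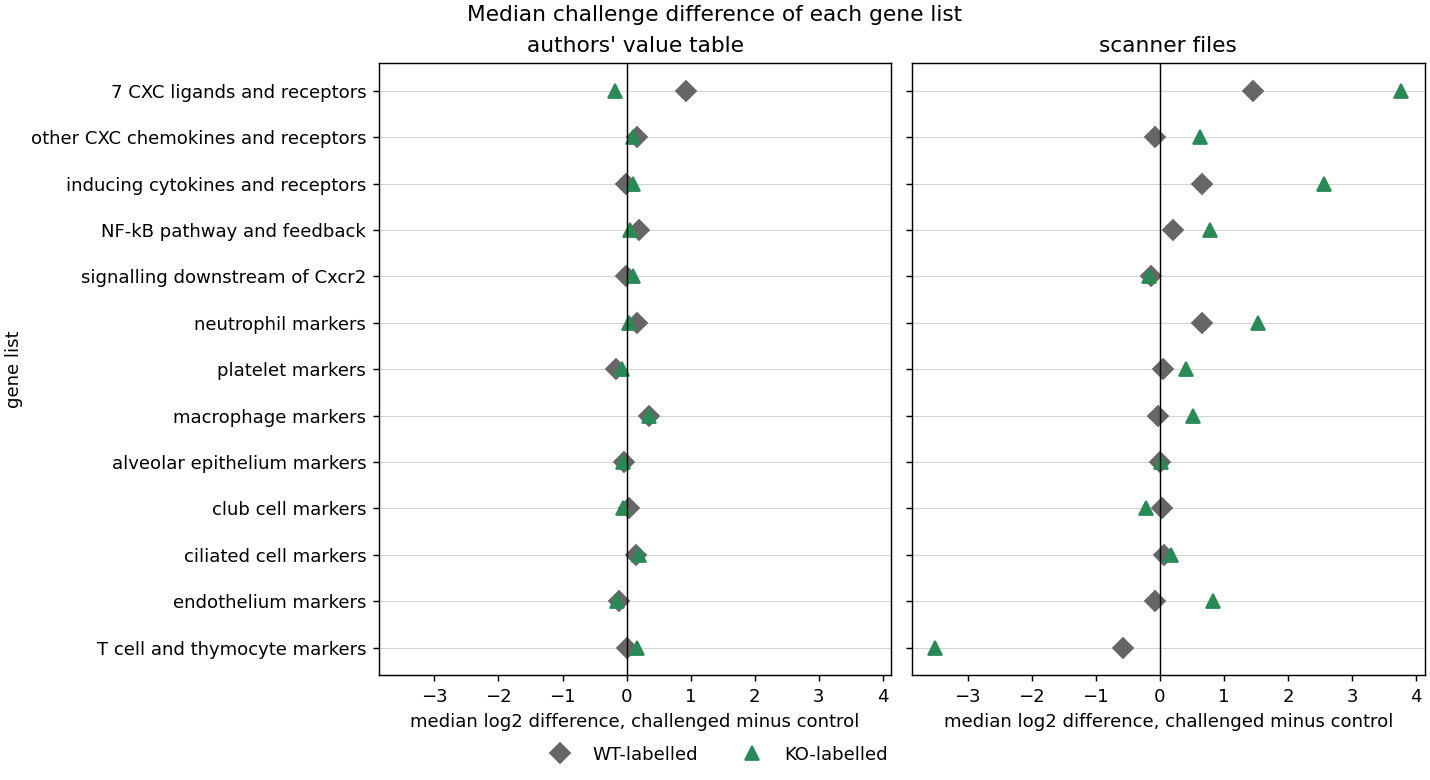
Median log2 difference between challenged and control arrays (x axis) of the 7 genes and of 12 gene lists (y axis), with dim arrays at their background bound in the lists, for WT-labelled (diamonds) and KO-labelled arrays (triangles). In the scanner panel the 7 genes lie farthest right, at 1.45 and 3.77, and in the table panel at 0.93 and -0.18.

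The genes nearest in pattern were found by the distance between log2 profiles over the 4 arrays, each centred on its own mean, among genes named and above background on all arrays (16515 by the table and 16463 by the scanner files). In the scanner files the nearest to Cxcl5 were Slfn4 (distance 2.92), Mirt2 (3.09) and Kcnj15 (3.24), all far off, since no searched gene came closer. The nearest to Cxcr2 were Ccl12 (0.19), Mab21l3 (0.19) and Stfa2l1 (0.32), and to Cxcl15 they were Plat (0.09), Tnf (0.12) and Hk2 (0.12). By the table they were Psg22 (0.08), Sbk3 (0.09) and Mucl3 (0.14) for Cxcl5, Cd14 (0.06), Epgn (0.07) and Erv3 (0.08) for Cxcr2, and Rab13 (0.03), Epha7 (0.03) and Polh (0.03) for Cxcl15. With 4 points a profile, closeness is a description only, and no gene was nearest to the same member in both sources.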

How the data were processed

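Gene expression was measured in 4 pooled lung RNA samples on Agilent 1-colour (Cy3) arrays with 1 slide and 1 scan in the headers, after labelling 200 ng of RNA. Spot intensity in the scanner files was read by Agilent Feature Extraction 11.5.1.1 and not normalised between arrays, per the file headers, which place probes on mm9. The authors deposited a value table of linear signal, in which the 75th percentile of each column lies near 1. The sources used here do not give its making. It had been planned as an alternative, and is treated as a source of its own because its columns departed from the scanner files so named. Flags (non-control, well above background, nonuniform, saturated) are per the file headers.

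Of 44397 spots, 43020 were not controls. Nonuniform spots (19 probes) were left out and 0 were saturated. Spots of a probe were averaged, log2 values were set to the 75th percentile (signal 1808 to 1986), and the probe with the highest mean stood for its gene. Above background meant the scanner's flag, or over 5 times the median negative control in the table; 79.2% to 82.1% of probes were. A gene was counted at 2-fold where above background on at least 1 array compared. Averaged effects were fitted with limma 3.58.1 in R 4.3.3 (challenge plus genotype label), adjusted by Benjamini-Hochberg over the 26311 and 26010 genes above background on at least 1 array. The number of arrays limits the precision. Companion and marker lists (12) are named by the 2 highest and 2 lowest averaged differences per source, except a few genes not reported here, and other genes named were chosen after their values were seen. Members and lists were chosen with earlier results of these data known. Alternatives covered the background correction, scaling, filter, fold, probe rule, variance model and source. Unmapped sample columns numbered 0.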

Additional observations from a re-analysis of the deposited data

Results flagged for a closer look

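Several of the 7 genes had differences of opposite sign between the 2 genotype labels or the 2 treatments. This was not tested, since each holds 1 pair of arrays and no replicates. The values for Cxcr2 with the KO label and Cxcl1 after challenge, both -0.04 by the value table, lie near 0, and that source has no spot errors. By the value table, the challenge difference was above 0 with the WT label and below 0 with the KO label for Cxcl2 (1.57 and -0.60, a difference of -2.17), Cxcl3 (1.32 and -1.44, a difference of -2.76), Cxcl5 (0.93 and -0.18, a difference of -1.12) and Cxcr2 (0.58 and -0.04, a difference of -0.61). Cxcl15 went the other way (-0.23 and 0.10, a difference of 0.33). The same arrays, read as KO-labelled minus WT-labelled, were above 0 in controls and below 0 after challenge for Cxcl1 (1.05 and -0.04, a difference of -1.10), Cxcl2 (1.90 and -0.27), Cxcl3 (2.30 and -0.46), Cxcl5 (0.82 and -0.30) and Cxcr2 (0.34 and -0.27). By the scanner files, Cxcl3 alone of the 7 did so, in the opposite sense, at -0.42 in controls and 3.93 after challenge, a difference of 4.36.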

How the results depend on the processing

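Quantile normalization and scaling to the median left every difference of the 7 genes in its direction and every count within 1.5 times, in both sources. Averaging of probes also left every count within that range, but it could not change the 7 genes, which have 1 probe each. The other source changed the most. A reversal is a change of sign from a difference of at least 2-fold in the source started from, or from an average of any size, so the lists differ with that source. From the scanner values, the table reversed the challenge difference of Cxcl15 with the WT label (-0.23) and of Cxcl2 (-0.60), Cxcl3 (-1.44), Cxcl5 (-0.18), Cxcr1 (-3.39) and Cxcr2 (-0.037) with the KO label. It reversed the KO-labelled minus WT-labelled difference after challenge for Cxcl1 (-0.042), Cxcl2 (-0.27), Cxcl3 (-0.46), Cxcl5 (-0.30) and Cxcr2 (-0.27), and the averaged challenge difference of Cxcl3 (-0.062), Cxcl15 (-0.063) and Cxcr1 (-1.77). It also reversed the difference of the responses for Cxcl1 (-1.10), Cxcl2 (-2.17), Cxcl3 (-2.76), Cxcr1 (-3.23) and Cxcr2 (-0.61). From the table values, the scanner files reversed Cxcl3 (5.62) and Cxcr1 (2.66) for challenge with the KO label, Cxcl3 in controls (-0.42), the averages of Cxcl3 (3.45), Cxcl15 (1.41) and Cxcr1 (1.69), and the difference of responses of Cxcl1 (2.32), Cxcl2 (at most 2.61), Cxcl3 (4.36) and Cxcr1 (1.94). The cause was not tested.

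Counts of the 7 genes moved at 3-fold to 3 (WT label, challenge) and 2 (controls) by the scanner files and to 0 (WT label) and 1 (KO label) by the table, and under normexp to 2 and 2. Genes past 2-fold, in the order challenge with the WT label, challenge with the KO label, genotype label in controls and after challenge, were 1138, 2224, 1530 and 2096 by the scanner files. They numbered 2759, 4794, 3437 and 4327 at 1.5-fold, 513, 1184, 698 and 1024 at 3-fold, 492, 1275, 875 and 1069 where above background on all arrays, and 192, 719, 468 and 490 under normexp, whose offset of 50 shrinks dim differences. Table counts were 885, 1158, 1308 and 1472, with 1852, 2694, 2818 and 2905 at 1.5-fold, 478, 549, 727 and 843 at 3-fold, and 334, 582, 717 and 750 with the filter on all arrays. Without a filter the first 3 of these were 1531, 1913 and 2028. In limma the variance trend passed 1 gene by the scanner files and 117 by the table, and normexp passed 1. Median scaling and probe averaging in the limma fit, and the limma settings for single genes, were chosen after seeing the data. No paired analysis was possible because each group had 1 array, and its number 1 only names it; for the same reason no array was left out in turn.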
